A study of Mus musculus with 4 samples.

Results

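The nuclei described here are CD45+ CD11c+ liver cells that carry RNA of group 1 innate lymphocytes and at most 1 molecule of CD3 RNA. A nucleus was a member when it held at least 1000 UMIs (unique molecular identifiers, each standing for 1 RNA molecule), at least 3 UMIs of Ncr1, Txk, Il2rb, Klrb1c and Klre1 together, and at most 1 UMI of Cd3e, Cd3d and Cd3g together. Nuclei with more than 1 UMI of Xcr1 and Clec9a (type 1 dendritic cells), of Siglech and Grm8 (plasmacytoid dendritic cells) or of Cd209a, Mgl2 and Clec10a (type 2 dendritic cells), or with more than 2 UMIs of C1qa, C1qb and C1qc (macrophages), were left out. This gave 2658 of 40915 nuclei in the series, 1567 of 14282 at D0 and 1091 of 26633 at D5.

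All cells came from the liver of C57BL/6J mice, sorted as live CD45+ CD64- CD11c+ cells, and both RNA and open chromatin (ATAC-seq) were read from the same nuclei with the 10x Multiome kit. D0 is the control without diet, and D5 was taken after 5 days of chow with 0.1% DDC (3,5-diethoxycarbonyl-1,4-dihydrocollidine), a xenobiotic that injures the bile ducts and causes cholangitis. The sort was set for dendritic cells, so lymphocytes entered only where they passed its CD11c gate. The purity of the sort, and the passage of cells joined to dendritic cells, were not tested. The study's methods state male mice for its single-cell experiments, with 1 age range for the study as a whole. The number of mice behind each library is not given in the sources used here. Each day is 1 library. No test between the days is therefore possible, every interval is a 95% interval for counting error alone, and diet and library cannot be told apart. The libraries shared 591 cell barcodes of the 16260 called at D0 and 27873 called at D5, and each barcode was counted within its own library.

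Natural killer (NK) cells and type 1 innate lymphoid cells (ILC1) are the group 1 innate lymphocytes. Both carry the receptors NKp46 (Ncr1) and NK1.1 (Klrb1c) and the factor T-bet (Tbx21), and both kill target cells with granzymes and perforin and release interferon gamma. In the mouse liver NK cells circulate and depend on Eomes, whereas ILC1 reside in the sinusoids, carry CD49a (Itga1) and Cxcr6, and include cells with granzyme C (Gzmc).

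The members held 2891291 UMIs at D0 and 2700719 at D5, with a median of 1319 and 1840 UMIs and 4354.5 and 3493.5 ATAC fragments in peaks per nucleus. They were thus shallower in RNA than all nuclei of their library, whose medians were 1978 and 2862 UMIs. A doublet score of 0.2 or more was found in 141 members at D0 and in 192 (17.6%) at D5, against 18.4% and 19.0% of all nuclei. Members made up 10.97% (10.5 to 11.5) of nuclei at D0 and 4.10% (3.86 to 4.34) at D5, a share 2.68 times higher at D0. This ratio was between 2.48 and 3.12 under every alternative tried, while the shares themselves moved with the cut-offs. A share of nuclei is bound by its total, and the number of pDC-like nuclei (those with Siglech and Grm8, with at most 1 UMI of the member markers) was 2815 at D0 and 2998 at D5.

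The 5 marker genes are the rule itself and are given as description only. At D0 the members held 496 CPM (UMIs of a gene per 1000000 UMIs of the summed nuclei) of Ncr1, 894 CPM of Txk, a kinase of the Tec family, and 897 CPM of Il2rb, the receptor chain shared by IL-2 and IL-15. At D5 these values were 374, 625 and 829 CPM. Klrb1c went from 492 to 468 CPM and Klre1, a lectin-like receptor, from 628 to 446 CPM. The rule genes were also found in CD3-positive nuclei (at least 3 CD3 UMIs). Ncr1 was detected in 40.7% and 42.0% of these, against 56.5% and 54.3% of members. Txk was in 63.5% and 68.9%, against 75.6% and 72.2%. Il2rb was in 71.4% and 78.5%, against 78.9% and 83.8%. Klrb1c was in 53.1% and 65.6%, against 55.3% and 63.3%, and Klre1 in 68.9% and 69.8%, against 64.1% and 60.2%. The cut ran through a continuum. With 2 marker UMIs, just outside, there were 261 nuclei at D0 and 164 at D5, and with 3, just inside, 234 and 153. Cxcr6 was at 214 CPM just outside and 422 CPM just inside at D0, and at 83.6 and 226 CPM at D5. Cd74, a gene of antigen-presenting cells, had the opposite order, 9908 and 7163 CPM at D0 and 13537 and 9774 CPM at D5.

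Eomes, which liver NK cells depend on, was rarely detected. It had 29 UMIs in 27 of 1567 nuclei at D0 and 24 UMIs in 15 of 1091 at D5, that is 10.0 (6.72 to 14.4) and 8.89 (5.69 to 13.2) CPM. After thinning each nucleus to 1000 UMIs, it was found in 0.574% (0.263 to 1.09) and 0.458% (0.149 to 1.07) of members. Without thinning, it was found in 1.72% and 1.37% of members and in 0.107% and 0.100% of pDC-like nuclei. In CD3-positive nuclei the shares were 4.15% and 1.45%. Eomes was thus rare in members but more frequent than in pDC-like nuclei. S1pr5, the egress receptor of circulating NK cells, had 12 and 4 UMIs, and Klrg1, a receptor of mature NK cells, 18 and 15. Both were named after their values had been seen. Other genes of the NK list were less rare, such as Klra9 with 479 and 316 UMIs and Klra7 with 246 and 163. Itga1 and Cxcr6 were far more abundant than Eomes. Itga1 was detected in 689 members at D0 (44.0%) and 326 at D5 (29.9%), and Cxcr6, the receptor that holds lymphocytes in the liver sinusoids, in 44.0% and 40.6%. In pDC-like nuclei, which should lack both genes, the shares were 4.76% and 2.43% for Itga1 and 5.75% and 3.00% for Cxcr6. Their median depths were 1727 and 2241 UMIs. CD3-positive nuclei (at least 3 CD3 UMIs) had larger shares than members, 61.0% and 51.6% for Itga1 and 62.7% and 59.4% for Cxcr6. Another ILC1 trait, Tnfsf10, was detected in 16.7% and 18.0% of members. Summed over the whole lists, the 19 NK traits held 5160.0 and 4391 CPM in members and 3594 and 2764 CPM in pDC-like nuclei. The 16 ILC1 traits held 5429 and 6026 CPM in members and 1695 and 1199 CPM in pDC-like nuclei. In CD3-positive nuclei the NK traits held 7064 and 7157 CPM and the ILC1 traits 5507 and 6007 CPM. Gzma and Gzmb, which both cell types carry, make up most of the NK sum in members. The NK list also holds Irf8, a factor of dendritic cells as well. At least 2 UMIs of this list were found in 97.1% and 98.4% of pDC-like nuclei and in 92.5% and 89.9% of members. Which genes make up the NK sum in pDC-like nuclei is not given here, so that sum is no plain background for NK traits. At these depths a nucleus without an Eomes UMI may still express the gene, so the share of NK cells among the members cannot be read from it. The nuclei are therefore called CD3-low Ncr1/Txk nuclei, by their rule.

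Other features were common to NK cells and ILC1. Tbx21 held 238 (220.2 to 256) CPM at D0 and 186 (169.6 to 202) at D5, against 15.9 and 11.1 CPM in pDC-like nuclei. It was detected in 31.8% and 32.4% of members and in 31.1% and 25.1% of CD3-positive nuclei. Among the NK traits Gzma was at 2018 and 1714 CPM, Gzmb at 1709.6 and 1525 CPM and Prf1, which encodes perforin, at 189.5 and 169.6 CPM. The chemokine Xcl1, listed with the ILC1 traits, was at 2257 and 2072 CPM. RNA of T cell genes was also present. Cd3g, of which the rule allows 1 UMI, was detected in 19.6% of members at D0 and 24.3% at D5, and in 13.3% and 12.2% after thinning, against 3.13% and 2.03% of thinned pDC-like nuclei. Trbc1, a constant segment of the beta chain, was detected in 63.8% of members at D0 and 64.3% at D5, and in 48.5% and 42.4% after thinning. CD3-positive nuclei had shares of 49.0% and 56.1%, and of 34.4% and 36.6% after thinning. The levels of Trbc1 were 688 CPM in members and 559 in CD3-positive nuclei at D0, and 514 and 544 CPM at D5, where the interval of the log2 ratio included 0 (-0.21 to 0.05). Its share in pDC-like nuclei was 6.36% and 2.70% without thinning. Trac, the constant gene of the alpha chain, held 33.2 and 19.99 CPM in members and 146 and 102 CPM in CD3-positive nuclei.

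**Figure D1:**
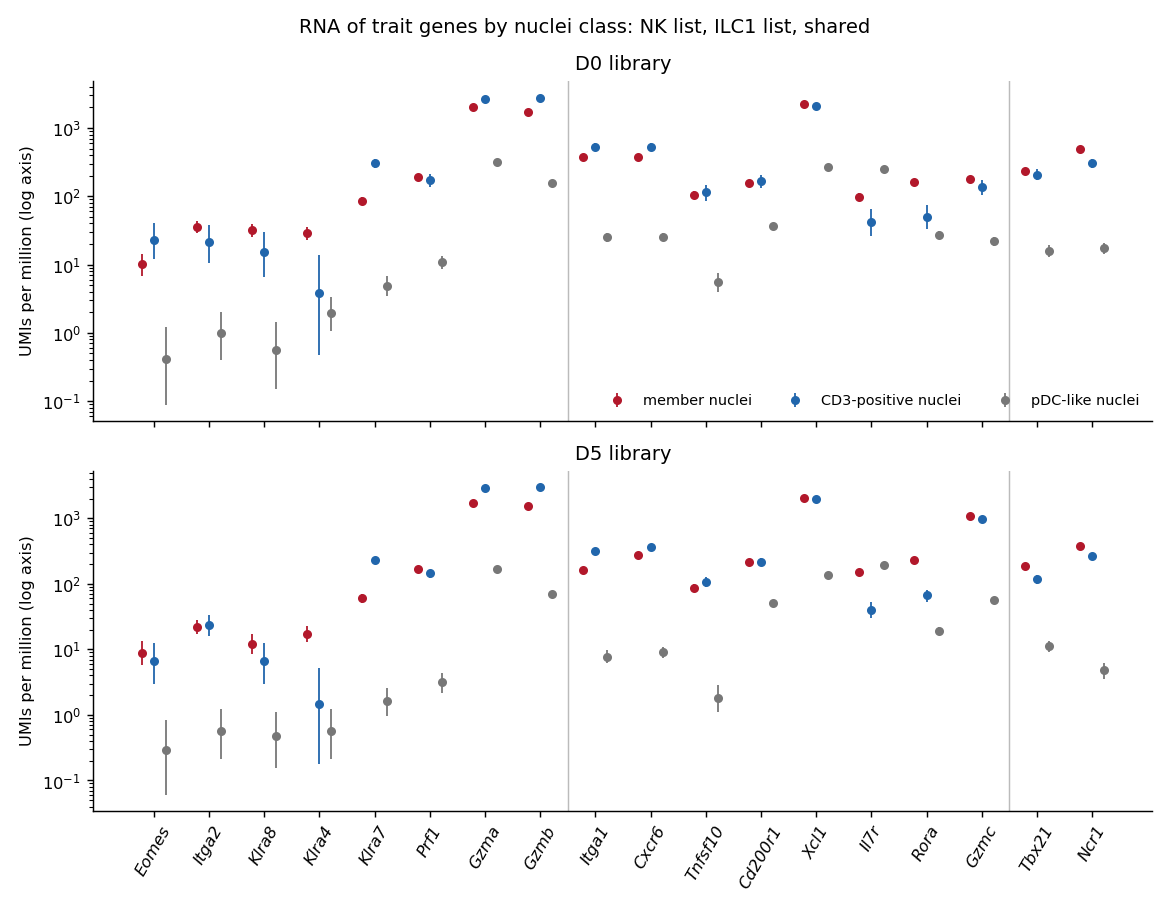
RNA of 18 genes in CPM (log axis) in member, CD3-positive and pDC-like nuclei of the D0 (top) and D5 (bottom) library, with 95% counting intervals. From the left stand the NK list, the ILC1 list and the pair Tbx21 and Ncr1. Eomes lies at 10.0 and 8.89 CPM in members, far below Itga1, Cxcr6 and Xcl1.

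Markers of other cell types were read in the same nuclei. All 10 listed markers of conventional dendritic cells were detected, summing to 10091 CPM at D0 and 12597 at D5 in members, mostly from Cd74 and H2-Ab1, and to 9731 and 12022 CPM in CD3-positive nuclei. Between the days Cd74 and H2-Ab1 had log2 ratios of 0.31 and 0.36 in members and 0.26 and 0.42 in CD3-positive nuclei. None of the 10 was 2-fold higher at D5 in members, and Clec9a, a gene of the rule, was 2-fold lower, at 49.1 and 23.3 CPM (log2 ratio -1.07, or -0.88 with TMM factors). The 6 pDC markers summed to 694 and 683 CPM (10552 and 7941 in pDC-like nuclei), the 7 macrophage markers to 89.2 and 94.4 CPM, the 6 B cell markers to 13.5 and 9.63 CPM and the 6 hepatocyte markers to 8.99 and 9.63 CPM. The 9 markers of type 2 and 3 innate lymphoid cells summed to 195 and 179.6 CPM, with Il22 and Il17a at 0 on both days, Il13 at 0 at D0 and Il1rl1 at 0 at D5. How far RNA of other cells contributes to a member's profile was not tested.

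The upstream sequences of 4 defining genes are shown because their accessibility was compared as well. They are the 250 bases before the start site in RefSeq on GRCm38.p6, the assembly of the mm10 build, written 5′ to 3′ along the strand of the gene. Capitals mark the letters TGTGGT or their reverse complement ACCACA, the core of a RUNX motif.
Ncr1 (chr7:4337465-4337714, plus strand): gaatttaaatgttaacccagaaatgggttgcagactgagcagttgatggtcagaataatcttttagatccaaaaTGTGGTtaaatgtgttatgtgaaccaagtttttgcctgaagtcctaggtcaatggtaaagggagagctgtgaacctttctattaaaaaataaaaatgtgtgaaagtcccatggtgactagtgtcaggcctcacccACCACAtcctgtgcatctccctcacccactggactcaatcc
Gzmc (chr14:56234658-56234907, minus strand): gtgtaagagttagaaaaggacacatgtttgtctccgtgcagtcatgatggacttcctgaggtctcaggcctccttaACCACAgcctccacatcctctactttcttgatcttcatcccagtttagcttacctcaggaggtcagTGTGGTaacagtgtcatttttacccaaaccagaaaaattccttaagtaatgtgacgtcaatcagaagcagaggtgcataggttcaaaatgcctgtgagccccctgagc
Eomes (chr9:118477939-118478188, plus strand): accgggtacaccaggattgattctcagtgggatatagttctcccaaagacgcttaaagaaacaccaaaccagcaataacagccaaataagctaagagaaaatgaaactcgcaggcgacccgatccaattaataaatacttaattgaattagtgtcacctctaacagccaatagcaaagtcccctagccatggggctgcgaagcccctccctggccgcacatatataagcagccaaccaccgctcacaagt
Itga1 (chr13:115101965-115102214, minus strand): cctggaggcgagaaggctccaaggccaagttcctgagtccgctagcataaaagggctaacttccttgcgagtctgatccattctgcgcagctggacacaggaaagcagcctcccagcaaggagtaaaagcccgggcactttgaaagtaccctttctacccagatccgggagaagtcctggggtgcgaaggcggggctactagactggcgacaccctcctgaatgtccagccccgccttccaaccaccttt
Both Ncr1 and Gzmc held 2 RUNX cores, at 176 and 41 bases before the start of Ncr1 and at 174 and 108 bases before that of Gzmc, and Eomes and Itga1 held none. Of 32536 upstream windows of the same length, 13.96% held at least 1. The AP-1 letters TGANTCA (6.73% of windows) and the T-box letters GGTGTGA (3.33%), searched on both strands as well, were found in none of the 4, nor in Ccl1 and Csf2, whose sequences stand with the cytokines. A match describes letters in the window and is no evidence of binding.

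The next question was what differed between the control and the DDC library within these nuclei. Gzmc, Ccl1, Csf2, Ifitm1, Ifitm2, Ifitm3 and the receptors Tnfrsf9 and Tnfrsf18 were at least 2-fold higher at D5. Ifng, Itga1, Tnf and genes of the heat shock response were at least 2-fold lower. The main granzymes, perforin, Xcl1, Ccl5 and Tbx21 stayed within 2-fold. Of 11107 genes with at least 20 UMIs, 757 (6.82%) passed 2-fold, 125 (1.13%) higher and 632 (5.69%) lower at D5, and the median log2 ratio was -0.18. Scaling with TMM factors raised all ratios by 0.19, put this median at 0.01 and gave 248 higher and 377 lower genes. Small ratios below are therefore best read against the median. Counts by list are best read against the shares of all genes, 1.13% higher and 5.69% lower.

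Cytotoxic effectors came first, since they define the function of these cells. Of 18 measured genes, 1 was 2-fold higher, none 2-fold lower, and the median ratio was -0.15 (0.05 with TMM factors). The exception was Gzmc, with 518 UMIs or 179 (164 to 195) CPM at D0 and 2981 UMIs or 1104 (1065 to 1144) CPM at D5, a log2 ratio of 2.62 (2.49 to 2.76). It was found in 15.6% of members at D0 and in 54.2% at D5, and in 11.2% (9.71 to 12.9) and 40.7% (37.8 to 43.7) after thinning. Its level followed the same course in CD3-positive nuclei, from 135 to 993 CPM. pDC-like nuclei, which should lack granzyme C, also had more of it at D5, with 21.8 and 57.2 CPM and shares of 4.16% and 17.2%. Gzma, Gzmb, Prf1 and Nkg7, a protein of cytotoxic granules, had log2 ratios of -0.24, -0.16, -0.16 and -0.36. The protease inhibitors Serpinb9 and Serpinb6b, of which the first protects killer cells from their own granzyme B, went from 228 to 362 CPM and from 159.8 to 248 CPM.

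Gzmc RNA was spread unevenly over the nuclei. At D0, the tenth of members richest in Gzmc held 82.8% of its UMIs and 22 members had 5 or more. At D5 the same fraction held 56.8%, 197 members had 5 or more, and the highest nucleus had 68 (29 at D0).

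Cytokines and chemokines moved in both directions, with 3 of 16 genes 2-fold higher and 3 2-fold lower. Ccl1, a chemokine that attracts cells with the receptor Ccr8, had 49 UMIs (16.9 CPM) at D0 and 733 UMIs (271 CPM) at D5, a log2 ratio of 4.00 (3.58 to 4.45). It was found in 1.21% and 14.1% of members, and in 0.462% and 5.07% of pDC-like nuclei. CD3-positive nuclei went from 3.85 to 184 CPM of Ccl1, a log2 ratio of 5.58 (3.71 to 8.63). This ratio rests on 2 of 241 nuclei with a Ccl1 UMI at D0, against 55 of 483 at D5. Csf2, which encodes the myeloid growth factor GM-CSF, had 79 UMIs (27.3 CPM) and 460 UMIs (170.3 CPM), a log2 ratio of 2.64 (2.29 to 3.00). Its level in CD3-positive nuclei was 40.5 CPM at D0 and 50.5 at D5, and in pDC-like nuclei 2.11 and 4.02 CPM. The third, Lta, had only 9 and 20 UMIs. Ifng, the signature cytokine of type 1 immunity, was lower at D5, with 1156 UMIs (399.8 CPM) and 274 UMIs (101 CPM), a log2 ratio of -1.98 (-2.17 to -1.79). It was found in 24.8% of thinned members at D0 and in 10.2% at D5. CD3-positive nuclei went from 356 to 89.9 CPM and pDC-like nuclei from 29.6 to 2.11 CPM, so the lower level was not particular to the members. Tnf went from 75.1 to 29.99 CPM and Il2 from 16.3 to 7.41 CPM, of which Il2 was within 2-fold with TMM factors (-0.94). The most abundant chemokine genes changed less, with Ccl5 at 3891 and 3697 CPM, Ccl4 at 2495 and 1744 CPM and Ccl3 at 799 and 544 CPM.

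The upstream sequences of the 2 genes with the largest ratios in this list are shown because chromatin at these genes was compared too. They are taken from the same source, with no motif of the 3 searched.
Ccl1 (chr11:82179813-82180062, minus strand): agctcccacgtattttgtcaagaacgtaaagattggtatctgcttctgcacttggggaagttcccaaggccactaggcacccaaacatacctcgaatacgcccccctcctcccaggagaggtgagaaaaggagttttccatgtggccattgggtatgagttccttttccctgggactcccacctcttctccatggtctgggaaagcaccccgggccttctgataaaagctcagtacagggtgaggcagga
Csf2 (chr11:54249900-54250149, minus strand): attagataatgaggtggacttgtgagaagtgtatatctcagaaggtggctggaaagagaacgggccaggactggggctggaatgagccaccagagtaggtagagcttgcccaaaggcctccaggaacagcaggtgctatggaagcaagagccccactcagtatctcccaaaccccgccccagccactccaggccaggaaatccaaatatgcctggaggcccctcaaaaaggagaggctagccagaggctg

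Of 24 genes listed as cytokine receptors, which include the ligand gene Il15, 2 were 2-fold higher and 3 lower, and the median was 0.05. Tnfrsf9, the costimulatory receptor 4-1BB, went from 157 to 455 CPM, a log2 ratio of 1.54 (1.38 to 1.70), and Tnfrsf18, which encodes GITR, from 144 to 309.5 CPM, a ratio of 1.11 (0.94 to 1.28). CD3-positive nuclei showed 187 and 389 CPM of Tnfrsf9 and 102 and 265 CPM of Tnfrsf18. The 3 lower genes were rare. Il15ra, a chain of the IL-15 receptor, went from 21.1 to 7.41 CPM, Il15 from 15.6 to 6.29 CPM and Il12rb1, a chain of the IL-12 receptor, from 23.5 to 11.1 CPM, where Il12rb1 was within 2-fold with TMM factors (-0.89). The abundant receptor genes Ifngr1 and Il12rb2 were at 586 and 678 CPM and at 343 and 346 CPM.

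Of 38 transcription factors 1 was 2-fold higher and 1 lower, a share near that of all genes, with a median of -0.25 (-0.06 with TMM factors). Ikzf2, which encodes Helios, went from 169.8 to 368 CPM, a log2 ratio of 1.12 (0.96 to 1.28). This ratio was 0.88 when all exclusion sums were set to 0. CD3-positive nuclei went from 283 to 488 CPM of Ikzf2. It was detected in 18.8% and 43.3% of members, and in 16.8% and 17.7% of pDC-like nuclei. Klf2, which maintains the expression of egress receptors, went from 152 to 75.2 CPM, a ratio of -1.01 (-1.26 to -0.77) that was -0.82 with TMM factors. Id2, needed by all innate lymphoid cells, was at 1206 and 1357 CPM, and Stat4, which signals downstream of IL-12, at 979 and 809 CPM.

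Among 24 genes of adhesion and homing, Cxcr4, the receptor for the chemokine Cxcl12, went from 59.8 to 120.3 CPM (log2 ratio 1.01, 0.74 to 1.28). Itga1 went from 379 (357 to 403) to 161 (146 to 177) CPM, a log2 ratio of -1.24 (-1.40 to -1.08), and from 31.4% to 17.5% of thinned members. It was also lower at D5 in CD3-positive nuclei, with 532 and 322 CPM. Itgav, the alpha chain of integrins that release active TGF-beta, went from 285 to 491 CPM and stayed within 2-fold, with a ratio of 0.78 (0.66 to 0.91). Hence the 2 genes that describe ILC1 traits here, Itga1 and Gzmc, went in opposite directions. None of 15 genes of the TGF-beta pathway passed 2-fold, and their median was -0.20.

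Of 33 NK receptors and adaptors, 2 were 2-fold higher and 2 lower, the lower share being near that of all genes (5.69%). Crtam, a receptor for the nectin-like molecule Cadm1, went from 28.4 to 62.6 CPM and Pdcd1, the inhibitory receptor PD-1, from 11.1 to 24.8 CPM. Klra8, which encodes Ly49H, went from 31.8 to 12.2 CPM and Klra1, another Ly49 gene, from 19.0 to 9.26 CPM, which was within 2-fold with TMM factors (-0.85). The adaptors Tyrobp and Fcer1g, which couple activating receptors to kinases, were at 1273 and 1309 CPM and at 974 and 957 CPM. By list, 17 measured NK traits held no gene higher and 1 lower, with a median of -0.17, and 16 ILC1 traits held 2 higher (Gzmc and Ikzf2) and 1 lower (Itga1), with a median of -0.12. These medians lay near the median of all genes.

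**Figure D2:**
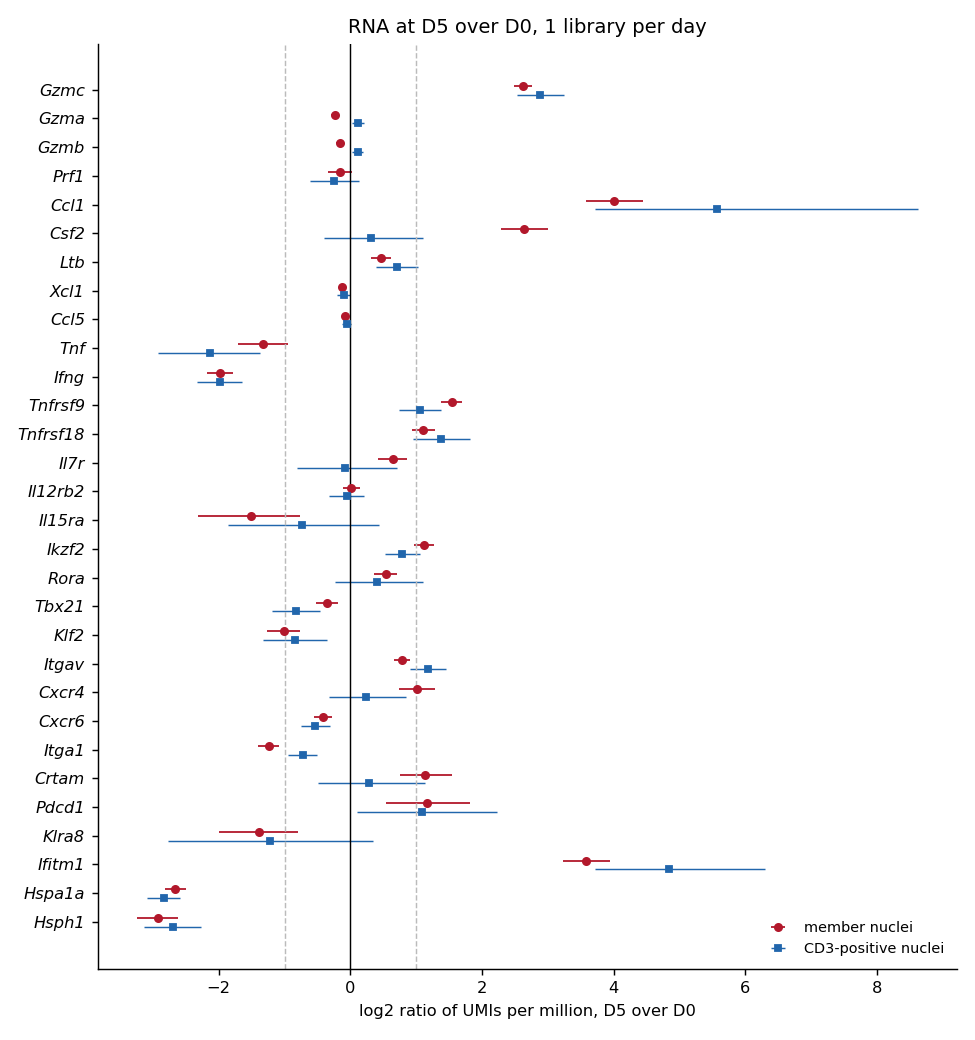
Log2 ratio of CPM, D5 over D0, for 30 listed genes in member nuclei (red circles) and CD3-positive nuclei (blue squares), with 95% counting intervals and dashed lines at 2-fold, from 1 library per day. Ccl1 (4.00), Ifitm1 (3.58), Csf2 (2.64) and Gzmc (2.62) stand highest in members, and Hsph1 (-2.93), Hspa1a (-2.66) and Ifng (-1.98) lowest. Csf2 is at 0.32 in CD3-positive nuclei.

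Among all genes with at least 100 UMIs, the 10 highest at D5 by the interval end nearest to 0 were Ccl1, Ifitm1, Ccdc184, Gzmc, Csf2, Dscam, Ttn, Wfdc17, Nrgn and Tnfrsf9. Dscam, a cell adhesion molecule, went from 59.8 to 336 CPM in members and from 63.6 to 98.0 CPM in CD3-positive nuclei. Nrgn, which binds calmodulin, went from 37.0 to 127 CPM in members and from 2.53 to 3.64 CPM in pDC-like nuclei. The 10 lowest were Hspa1b, Hsph1, Hspa1a, Dnajb1, Art2b, Ifng, P3h2, Atp8a2, Tmem273 and Cacna1e. Art2b, an ADP-ribosyltransferase of lymphocytes, went from 45.7 to 5.92 CPM and Atp8a2, a lipid flippase, from 258 to 75.9 CPM. Cacna1e, a calcium channel subunit, held 788 and 429.7 CPM in pDC-like nuclei and 59.5 and 14.8 CPM in members, and its ratio of -2.01 was -0.74 with all exclusion sums at 0.

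Some other differences between the days were shared by members, CD3-positive and pDC-like nuclei. Ifitm1, Ifitm2 and Ifitm3, interferon-induced proteins that block the entry of viruses, had log2 ratios of 3.58, 1.504 and 1.08 in members. These 3 of 5 measured Ifitm genes passed 2-fold, and Ifitm6 passed it only with TMM factors (1.08). Ifitm1 went from 25.2 to 302 CPM in members, from 11.6 to 333 CPM in CD3-positive nuclei and from 18.1 to 358 CPM in pDC-like nuclei. Of 20 heat shock genes, 8 were 2-fold lower at D5 and none higher, with a median of -0.78. With TMM factors Dnajb4 was within 2-fold (-0.88). Hspa1b, an inducible chaperone of the HSP70 family, went from 1371 to 177 CPM in members, from 1391 to 178 in CD3-positive and from 686 to 149.6 in pDC-like nuclei. Jun, an immediate early gene, went from 894 to 342 CPM in members and was the only one of 19 such genes beyond 2-fold. Hspa1a, Hsph1 and Dnajb1 were also lower at D5 in CD3-positive and pDC-like nuclei. The differences in Ifitm1, Hspa1b and these genes are therefore not particular to the members. The other genes of this paragraph are given for members only. Diet and library cannot be told apart for any of them.

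CD3-positive nuclei of the same sort, 241 at D0 and 483 at D5, had at least 3 CD3 UMIs and the same myeloid limits. They were chosen as a related lymphocyte class and served as comparison within each library. Similarity to the other classes of the series was not ranked. Of 5490 genes with enough UMIs, 13 were 2-fold higher in members in both libraries and 9 lower, 0.401% in all. The CD3 limit selects against T cells, so lower levels of T cell receptor genes follow from the rule. The 13 higher genes included several receptors for IL-7 and IL-18. Il7r held 98.2 CPM in members and 42.4 in CD3-positive nuclei at D0, and 154 and 40.2 CPM at D5. Il18r1 held 57.1 and 21.2 CPM at D0, and 71.5 and 5.12 CPM at D5, and Il18rap, its partner chain, 119 and 55.9 CPM, and 156 and 58.5 CPM. Rora, a nuclear receptor that innate lymphoid cells express, was at 159.8 and 50.1 CPM at D0 and at 232 and 66.5 CPM at D5, log2 ratios of 1.67 (1.10 to 2.30) and 1.80 (1.48 to 2.14). Mmp9, a matrix protease, Emb, an adhesion protein, and Icos and Cd28, costimulatory receptors, were also in this group. Il7r was higher still in pDC-like nuclei (247 and 191 CPM), and how far such RNA adds to the level in members was not tested.

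The 10 genes ranked lowest in members held 6 from T cell receptor or CD8 loci (Tcrg-C1, Tcrg-C2, Trdc, Trac, Trbc2 and Cd8a) and 4 Ly49 receptor genes. Trbc2 ranked among the 10 but was below 2-fold at D5. Klra1 was at 19.0 CPM in members and 129 in CD3-positive nuclei at D0, and at 9.26 and 73.1 CPM at D5, and Klra7 was at 85.1 and 303 CPM, and at 60.4 and 231 CPM. Ly49 genes are similar in sequence, so reads may have been assigned among them with error. Apart from these, Gzma and Gzmb were lower in members on both days within 2-fold, with log2 ratios of -0.40 and -0.76 for Gzma and -0.68 and -0.96 for Gzmb. Csf2 was at 27.3 against 40.5 CPM at D0, where the interval of the log2 ratio ran from -1.28 to 0.20, and at 170.3 against 50.5 CPM at D5, a ratio of 1.76 (1.39 to 2.14).

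**Figure D3:**
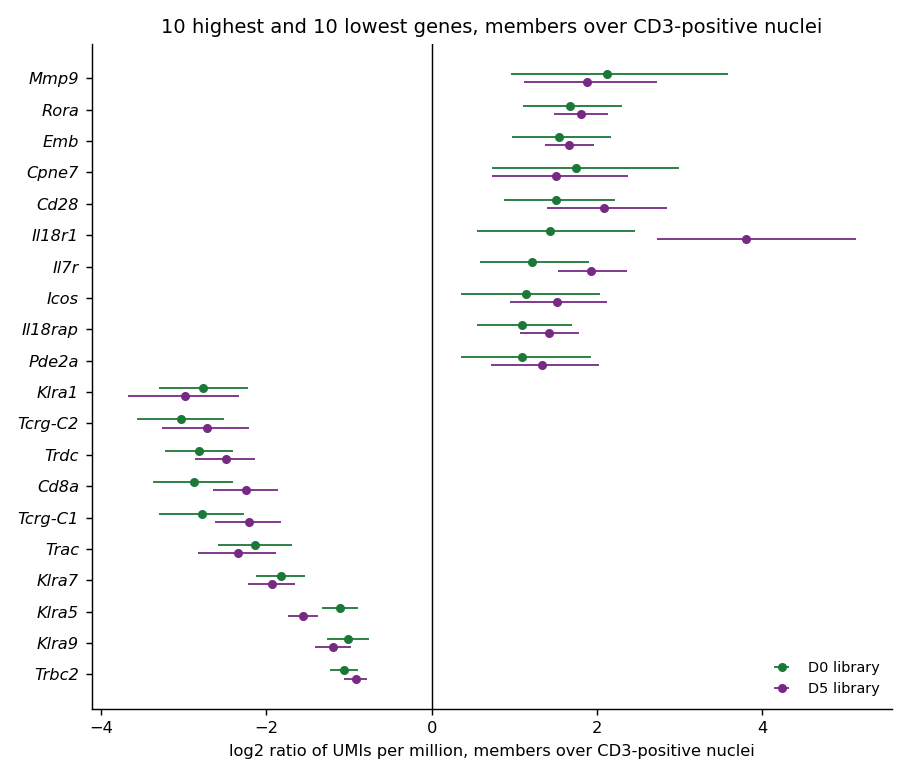
Log2 ratio of CPM, member over CD3-positive nuclei, for the 10 highest and 10 lowest genes in the D0 (green) and D5 (purple) library, with 95% counting intervals. The ranking asked for the same direction in both libraries, so each gene lies on the same side of 0 by selection. Il18r1 has the largest gap between the libraries (1.43 and 3.80).

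The members were then divided by the traits that separate NK cells from ILC1. The Eomes side held nuclei with an Eomes UMI and no Itga1 or Gzmc UMI, 21 at D0 (1.34%, 0.831 to 2.04) and 10 at D5 (0.917%, 0.440 to 1.68). The Itga1/Gzmc side held nuclei with at least 2 UMIs of Itga1 and Gzmc together and no Eomes, 378 at D0 (24.1%, 22.0 to 26.3) and 479 at D5 (43.9%, 40.9 to 46.9). Traits of both sides were found in 6 and 5 nuclei. Most members, 1162 and 597, were on neither side. The order of the days depends on Gzmc or on the minimum, since a side defined by 1 Itga1 UMI alone, without Gzmc, held 43.6% of members at D0 and 29.6% at D5. The 2 genes were not found together more often than apart at D0, with Gzmc in 15.8% of members with Itga1 and in 15.49% of those without. After thinning these shares were 10.8% and 11.4% at D0 and 48.7% and 39.0% at D5.

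Of 5088 genes, 145 (2.85%) were 2-fold higher or lower on the Itga1/Gzmc side in both libraries, 92 higher and 53 lower. The Eomes side rests on 60054 and 33122 UMIs, so that its genes have few counts. Its nuclei were deeper, with medians of 2329 and 2180.5 UMIs against 1361 and 1919 on the Itga1/Gzmc side. Among genes with at least 30 UMIs in each library, Klra7 led those of the Eomes side. It was at 84.6 CPM on the Itga1/Gzmc side and 566 CPM (34 UMIs) on the Eomes side at D0. At D5 it was at 31.5 and 513 CPM (17 UMIs). Klra8 pointed the same way, with 36.6 and 383 CPM at D0 and 0 and 11 UMIs at D5. So did Klra4, named after its values had been seen, with 8.84 and 533 CPM at D0 and 0 and 14 UMIs at D5. At D5 both Klra8 and Klra4 were below the minimum of 30 UMIs. Irf8, a factor of dendritic cells as well as of maturing NK cells, was at 527 and 1132 CPM at D0 and at 372 and 936 CPM at D5. Top2a, a gene of dividing cells, and Ccr7, a lymph node homing receptor that mature dendritic cells also carry, were higher on the Eomes side as well. Genes of dendritic cells were read beside them. Tcf4 was at 366 CPM on the Itga1/Gzmc side and 283 on the Eomes side at D0, and at 348 and 966 CPM at D5, and H2-Ab1 was at 3288 and 4613 CPM and at 4051 and 3925 CPM. How far RNA of other cells contributes to the Eomes side was not tested. On the other side, Cd226, an activating receptor, was at 482 CPM against 6 UMIs (99.9 CPM) at D0 and at 384 CPM against 1 UMI at D5, and Cxcr6 at 392 CPM against 8 UMIs (133 CPM) and at 346 CPM against 1 UMI. Gzmb was at 1953 and 833 CPM at D0 and at 2083 and 483 CPM at D5, while Gzma was at 2300.0 and 1682 CPM and at 2046 and 2355 CPM. Thus, the few nuclei of the Eomes side carried more Klra7 and less Cxcr6 and Gzmb than the Itga1/Gzmc side in both libraries. They also carried more Klra8 and Klra4, by counts below the minimum at D5. Nuclei with Eomes and Itga1 or Gzmc are left out here, and nuclei on neither side were not compared. Gzmc helped to choose the sides, and how far this choice adds to the difference in Gzmb was not tested. Among other Ly49 genes, Klra5 had the opposite order in both libraries. It was at 260.2 and 149.9 CPM (9 UMIs) at D0 and at 184 and 30.2 CPM (1 UMI) at D5. The D0 interval of its log2 ratio included 0 (-0.16 to 1.95). Klra9 was at 179 and 283 CPM and at 129 and 151 CPM. Both intervals of its log2 ratio included 0 (-1.39 to 0.16 and -1.48 to 1.42). These sides were compared by counts only, with 3 nuclei of the Eomes side at a doublet score of 0.2 or more on each day.

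A division by single genes, chosen after the values had been seen, used nuclei thinned to 1000 UMIs. Nuclei with a Gzmc UMI (176 at D0 and 444 at D5) held more Gzmb, with 3062 against 1909 CPM at D0 and 2428 against 1411 CPM at D5, and more Xcl1, with log2 ratios of 0.49 (0.37 to 0.61) and 0.79 (0.67 to 0.90). They also held more Tnfrsf9, with 307 against 175 CPM and 667 against 451 CPM. At D5 Ccl1 was at 581 CPM with Gzmc and 111 CPM without, and Csf2 at 401 and 47.9 CPM, a log2 ratio of 3.06 (2.51 to 3.66). At D0, Csf2 was at 34.1 and 35.2 CPM. Thus at D5 the RNA of Ccl1 and Csf2 lay mostly in nuclei with Gzmc. Il18r1 and Klra7 were lower with Gzmc in both libraries, at -1.31 and -0.80 for Il18r1 and -1.01 and -1.76 for Klra7. Cd74 was somewhat lower with Gzmc, at -0.12 and -0.33.

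Nuclei with an Il7r UMI (129 at D0 and 148 at D5) had another profile. Il18r1 was at 178 against 55.6 CPM at D0 and 203 against 58.3 CPM at D5, Rora at 349 against 163 and 729.7 against 206 CPM, and Tcf7, a factor of lymphocyte precursors, at 101 against 30.6 and 94.6 against 25.5 CPM. Il2ra, the high-affinity chain of the IL-2 receptor, had log2 ratios of 1.38 (0.29 to 2.35) and 1.40 (0.49 to 2.25). In contrast, Gzma was at 1031 against 2453 CPM at D0 and 554 against 2257 CPM at D5, and Gzmb at 1178 against 2115 and 818 against 1983 CPM. Klra5, Klra7 and Klra9 were lower as well, with ratios between -1.91 and -2.56, and so was Cd3g, at -2.19 and -1.73. Itga1 had ratios of -0.05 (-0.48 to 0.35) and -0.40 (-1.08 to 0.21). Since pDC-like nuclei held more Il7r, their marker Tcf4 was read beside it, at 318 against 264 CPM at D0 and 372 against 281 CPM at D5, with both intervals of the log2 ratio including 0 (-0.23 to 0.74 and -0.04 to 0.83).

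**Figure D4:**
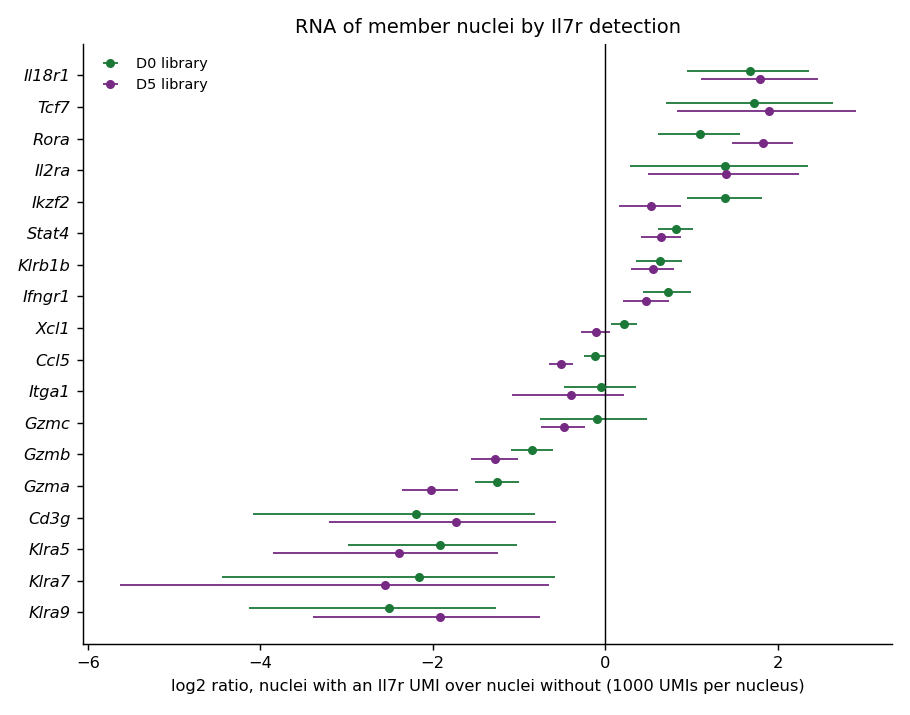
Log2 ratio of RNA in member nuclei with an Il7r UMI over those without, for 18 genes at 1000 UMIs per nucleus, in the D0 (green) and D5 (purple) library with 95% counting intervals. Tcf7 (1.72 and 1.89), Il18r1 (1.68 and 1.80) and Rora lie above 0 in both libraries. Gzma (-1.25 and -2.03), Gzmb and the Klra genes lie below 0 in both.

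Chromatin was not used by the rule and was read in the same nuclei. It is given in FPM, ATAC fragments per 1000000 fragments in peaks, summed over the peaks that touch 2 kb on either side of the start sites of a gene. All 5 rule genes were at least 2-fold more open in members than in pDC-like nuclei in both libraries. Their RNA had chosen both classes, so this is description only. Of 15450 windows, 650 (4.21%) were 2-fold more open. Ncr1 was at 28.1 and 1.22 FPM at D0 and at 30.3 and 0.512 at D5, and Txk at 106 and 7.14 and at 108 and 2.32. The same held for 9 of 18 cytotoxic effectors, 6 of 14 ILC1 traits and 5 of 11 NK traits. In the other direction, 1199 windows (7.76%) were 2-fold less open. Among them was that of Siglech, whose RNA had also chosen both classes, at 3.34 and 25.3 FPM at D0 and 2.86 and 28.0 at D5.

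CD3-positive nuclei were much closer. Windows were counted with at least 100 fragments over both classes in each library. Of 12258 windows, 2 (0.0163%) were 2-fold more open in members in both libraries and 1 (0.00816%) less. None of the 5 rule genes was among them, with median log2 ratios of -0.0004 at D0 and -0.06 at D5. The Cd3e window held too few fragments to be counted. It was at 8.38 FPM in members and 23.1 in CD3-positive nuclei at D0, and at 2.74 and 13.7 at D5. Its log2 ratios were -1.46 (-2.10 to -0.79) and -2.23 (-3.35 to -1.19). The order of the Cd3e windows was thus that of the RNA the rule had used. At Eomes members held 132 fragments at D0 and 55.5 at D5, or 16.0 and 13.2 FPM, CD3-positive nuclei 21.1 and 21.4, and pDC-like nuclei 2.39 and 1.63. The Eomes window was hence more open in members than in pDC-like nuclei, with log2 ratios of 2.75 (2.24 to 3.27) and 3.04 (2.35 to 3.76), although its RNA was rare. At Itga1 members were at 25.3 and 20.4 FPM, and CD3-positive nuclei at 25.0 and 20.6. Fragments of closed and open alleles are averaged over all members, so a low value may be few open nuclei or many partly open ones.

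Between the days the chromatin of the genes with large RNA ratios differed little. The Gzmc window was at 11.0 FPM at D0 and 10.9 at D5, a log2 ratio of 0.01 (-0.54 to 0.53) beside the RNA ratio of 2.62. Ifng was at 43.6 and 40.3, with a ratio of -0.11 (-0.38 to 0.16), and Itga1 had -0.30 (-0.68 to 0.07). Ccl1 was the exception among these, with 129.5 fragments or 15.7 FPM at D0 and 115 fragments or 27.4 FPM at D5, a log2 ratio of 0.80 (0.42 to 1.17). Without nuclei of high doublet score or mitochondrial share this ratio was 1.05. CD3-positive nuclei were at 18.8 and 17.8 FPM at Ccl1, a log2 ratio of -0.07 (-0.87 to 0.74) beside their RNA ratio of 5.58. That RNA ratio rests on 2 nuclei with a Ccl1 UMI at D0. Tnfrsf9 went from 91.5 to 119 FPM (0.38, 0.22 to 0.55) and Csf2 from 23.3 to 29.7 (0.34, 0.01 to 0.68). In CD3-positive nuclei the Csf2 window went from 16.1 to 34.8 FPM, a log2 ratio of 1.12 (0.39 to 1.90) from 21.0 and 67.5 fragments, beside an RNA ratio of 0.32.

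**Figure D5:**
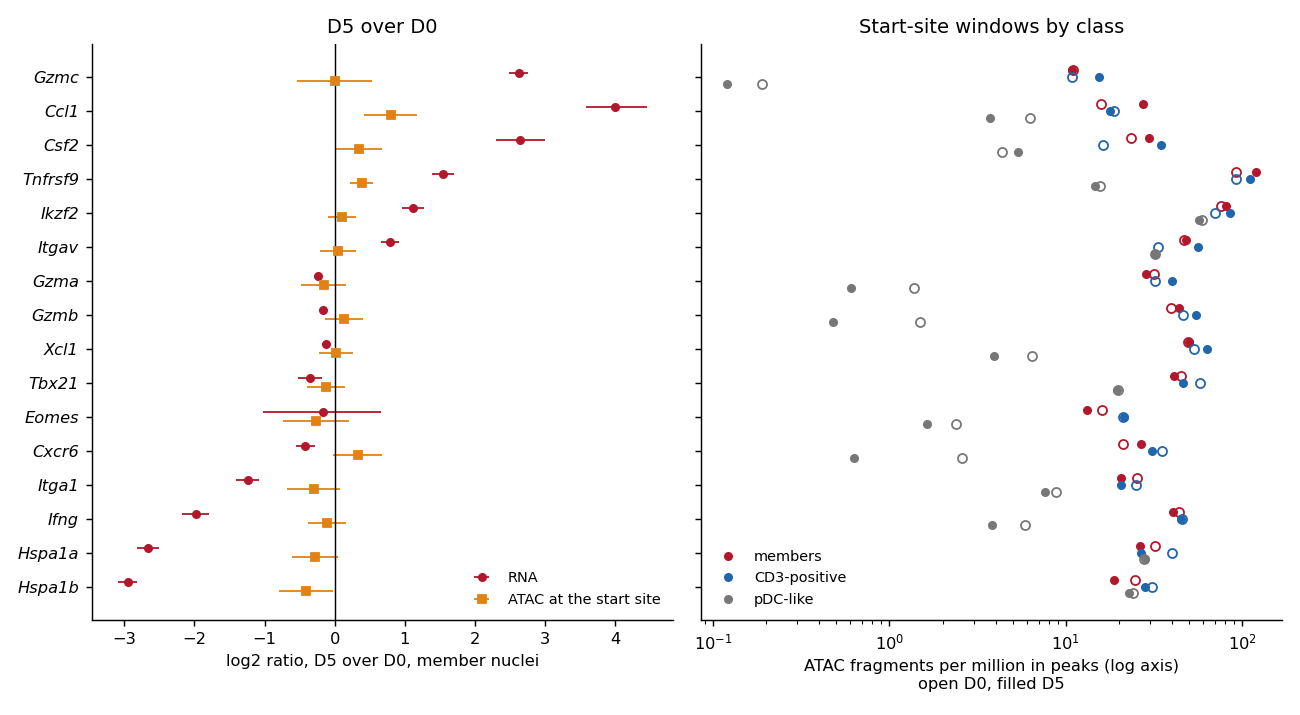
Left, log2 ratio D5 over D0 in member nuclei for RNA (red circles) and ATAC at the start site (orange squares) of 16 genes, with 95% counting intervals. Right, FPM (log axis) at the same windows in members, CD3-positive and pDC-like nuclei, open at D0 and filled at D5. For Gzmc the RNA ratio is 2.62 and the ATAC ratio 0.01, and its window in pDC-like nuclei lies at 0.190 and 0.120 against 11.0 and 10.9 in members.

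Peaks were also compared without regard to genes. Of 127216 regions with a peak in both libraries, 26273 held enough fragments in members, and 207 (0.788%) were 2-fold more open and 87 (0.331%) 2-fold less open at D5. The region that ranked first among the more open ones, chr17:87118684-87119632, lies 11478 bases from the start of Socs5, an inhibitor of cytokine signalling, and went from 5.22 to 22.8 FPM, a log2 ratio of 2.13 (1.60 to 2.69), with 1.51 in CD3-positive and -0.43 in pDC-like nuclei. The third, chr16:91533105-91534009, lies 13515 bases from the start of Ifngr2, a chain of the interferon gamma receptor, and went from 21.1 to 73.9 FPM, with similar ratios in members (1.81), CD3-positive (1.58) and pDC-like nuclei (1.71). The others of the first 5 lie nearest to Ceacam15, Rab6b and Gmppb. The 5 regions that ranked lowest lie nearest to Spen, Brd1, Bri3, Tom1l2 and Gm38102, and each was also less open at D5 in both other classes. At Spen (chr4:141546753-141547672) members went from 26.6 to 3.46 FPM. Against CD3-positive nuclei, 6 of 15693 regions (0.0382%) were 2-fold different in both libraries, 4 of them more open in members. The first, chr12:112917222-112918128, lies 12101 bases from the start of Jag2, a Notch ligand, and was at 13.1 and 5.00 FPM at D0 and at 20.9 and 7.99 at D5. Nearest genes are given for orientation, and no link between a region and a gene was measured.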

How the data were processed

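The authors deposited raw counts without normalisation: UMI counts per gene and called barcode (Cell Ranger 6.0.2 per the file headers) and joint counts of genes and peaks (Cell Ranger ARC 2.0.2, build mm10 per the processing notes). The D5 joint matrix was given here without barcodes, so layers were joined by identical gene counts, which matched 16260 of 16260 barcodes at D0 and 27873 of 27873 at D5. Peak counts were halved to fragments, since 70.4% and 75.1% of entries equalled 2.

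The members, gene lists and comparisons were chosen with earlier results of these data known. Single values of some listed genes are not reported here. UMIs were summed over nuclei and scaled to 1000000. The intervals are exact (Poisson for sums, Clopper-Pearson for shares, conditional binomial for ratios), at 95%, and cover counting error only. A gene counted as 2-fold at an absolute log2 ratio of 1 or more with at least 20 UMIs over both libraries and 1 in each. pDC-like nuclei had at least 3 Siglech and Grm8 UMIs and at most 1 of the 5 rule genes. Named were the 2 to 8 most abundant genes of each list, its 2-fold genes, genes from the 10 highest and lowest of each comparison, and for regions the first 5. For the sides, only some of the ranked genes were named, beside genes of the NK and ILC1 lists. Doublet scores came from simulated doublets, and no doublet was removed in the values given. Alternatives were TMM factors (edgeR 4.0.16), count minimums, thinning to 1000 UMIs, stricter cut-offs and other windows. The ratio intervals were tested on simulated Poisson counts, the model they assume, so this test cannot cover spread between libraries or nuclei. Python 3.11.15 with scipy 1.17.1 was used.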

Additional observations from a re-analysis of the deposited data

Results flagged for a closer look

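Opposite directions were seen in members and CD3-positive nuclei for 22 of 11107 genes, that is with both D5 over D0 intervals beyond 0 on different sides, and 5 of these belong to the gene lists. Il18r1, a chain of the IL-18 receptor, had a log2 ratio of 0.32 in members and -2.05 in CD3-positive nuclei, where it fell to 7 UMIs at D5. Relb, a subunit of NFkB, had 0.53 and -0.54. Gzma had -0.24 and 0.12, and Gzmb had -0.16 and 0.11. Tcf4, a factor that is far higher in pDC-like nuclei, had 0.20 and -0.48. The differences between the classes were not tested, and with TMM factors the members' ratios of Gzma and Gzmb were -0.04 (-0.10 to 0.01) and 0.03 (-0.03 to 0.09), so that neither was then opposite beyond its interval.

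Nuclei under the minimum of 1000 UMIs are outside the counts given above. At D0, 463 of 1978 such nuclei met the marker rule, 23.4% (21.6 to 25.3), and at D5 24 of 1240, 1.94% (1.24 to 2.87). This share at D0 was higher than the 10.97% found above the minimum.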

How the results depend on the processing

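No paired analysis was possible because each day has 1 library. Of the alternative values computed for shares, sides, counts, list medians and some named genes and windows, 460 stayed on the same side, 23 moved, 5 changed sign, 4 fell below and 2 passed the 2-fold limit, and the cause was not tested. The share of members was 6.18% at D0 and 2.19% at D5 with a minimum of 2000 UMIs, 7.39% and 2.98% with at least 5 marker UMIs, and 4.84% and 1.59% with all exclusion sums at 0. It was 3.70% at D5 after thinning to 1000 UMIs, 12.2% at D0 without nuclei of high doublet score or mitochondrial share, and 12.5% at D0 with no UMI minimum, a setting chosen after seeing the data. Of 52 listed genes at 2-fold, most of them outside this tally, 13 were within 2-fold with TMM factors, and 4 others passed it. Genes 2-fold higher and lower at D5 were 248 and 377 with TMM factors, 629 and 1639 with no count minimum, and 33 and 125 with a minimum of 100 UMIs. With TMM factors the medians became positive for NK traits (0.0174), ILC1 traits (0.0751), cytotoxic effectors (0.0461) and NK receptors (0.0232), and without high doublet scores that of ILC1 traits was 0.0420. The Itga1/Gzmc side was 43.6% and 29.6% of members with Itga1 alone and 13.8% and 28.2% when cut after thinning. The Eomes side was 0.574% at D0 after thinning, and 0.128% and 0.367% with at least 2 Eomes UMIs. With 1 library per day, no alternative measures the spread between animals. Genes with few UMIs, Eomes among them, are limited by depth, and values near those of pDC-like nuclei cannot be told apart from free RNA.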

Other observations

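Gene groups outside the main account were read in the same nuclei. Of 30 measured interferon-stimulated genes, 4 were 2-fold lower at D5 (Gbp2, Ifit2, Rsad2 and Ifit3, the last only without TMM factors) and none higher. Of all genes, 5.69% were 2-fold lower. The median log2 ratio of the list was -0.50 (-0.30 with TMM factors). Gbp2, a GTPase induced by interferon gamma, went from 35.3 to 13.3 CPM. Ifi27l2a went the other way, from 99.3 to 157 CPM, within 2-fold, so the list and the Ifitm genes differed in direction. Of 22 NFkB components none passed 2-fold, with a median of 0.14, whereas with TMM factors the median was 0.33 and Nfkb2 (1.14) and Ikbke (1.08), named after their values had been seen, passed it. Rel, a subunit of lymphocytes, was at 703 and 813 CPM and Nfkbia, an inhibitor that NFkB itself induces, at 913 and 1256 CPM.

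Of 33 cell cycle genes, 4 were 2-fold lower at D5, against 5.69% of all genes. They were Cenpf, Cenpe, Aspm and Ccna2, of which only Aspm with TMM factors. Each had at most 65 UMIs at D0, and the median of the list was -0.37 (-0.18 with TMM factors). Mki67, a marker of dividing cells, was at 55.0 and 42.6 CPM and Top2a at 87.2 and 49.2 CPM in members, against 73.2 and 91.4 CPM of Top2a in CD3-positive nuclei. Some markers of other cells had different counts in the 2 libraries. S100a8 and S100a9, genes of neutrophils, had 3 and 7 UMIs in members at D0 and 55 and 64 at D5, with 0 and 23.4 CPM of S100a8 in CD3-positive and 3.23 and 17.7 CPM in pDC-like nuclei. Stab2, a gene of sinusoidal endothelium, had 34 UMIs in members at D0 and 2 at D5, and was at 27.0 and 1.46 CPM in CD3-positive and 6.74 and 0.670 CPM in pDC-like nuclei.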
